A study of Mus musculus with 127 samples.

Results

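The 10 genes described here are immediate early genes, the first genes that neurons transcribe after strong synaptic input: Fos, Fosb, Junb, Egr1, Egr2, Egr4, Arc, Npas4, Nr4a1 and Dusp1. They were chosen by name as activity-induced genes, with earlier results of these data known, and are 10 of the 54838 gene rows of the count tables. Calcium entry and kinase signalling act on factors such as CREB and SRF that are already present, so these genes switch on without new protein synthesis and switch off again quickly. In cortex their RNA is commonly used as a record of recent neuronal activity. Most of them encode transcription factors, and Arc and Dusp1 encode proteins that act at synapses and on kinases.

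The libraries are poly(A) RNA-seq of adult mouse cortex (age 60 days), made to describe expression in Chd8 mutants in whole tissue and in cell fractions. Chd8 encodes a chromatin remodeller in which mutations are associated with autism. Heterozygous germline mutants (HET), which carry a 5 bp deletion, were set against wild-type (WT) mice in whole cortex (16 HET and 15 WT libraries), in the nuclear fraction (9 HET and 12 WT), in the synaptic fraction (7 HET and 11 WT) and in the cytosolic fraction (7 HET and 5 WT). In the conditional line, Camk2a-Cre, which is active in excitatory forebrain neurons, acts on a floxed Chd8 allele. Conditional cortex held 6 libraries of Chd8+/flox mice with Cre and 8 of Chd8+/flox mice without Cre. Because only one of these groups carries Cre, an effect of Cre and an effect of the deletion cannot be told apart there. The conditional fractions held 6 HET, 3 homozygous (HOM) and 4 WT nuclear libraries and 5 HET, 5 HOM and 4 WT synaptic libraries. In those fractions the WT mice also carried Cre, with 196 to 316 Cre reads in their nuclear libraries and 68 to 214 in their synaptic ones. The labels number the libraries of a group as biological replicates. In bulk tissue, fewer active cells and less RNA per active cell cannot be told apart.

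Libraries held 19 to 30.5 M gene counts in germline cortex, 98.1 to 134.6 M in conditional cortex and 23.2 to 56.6 M in the fractions. All 10 genes had counts in every library and passed the low-count filter in all 7 data sets, so no member was lost. Chd8 was lower in germline HET cortex, with 62 ± 11.9 CPM (counts scaled to the library total) against 93.2 ± 13.8 CPM in WT cortex (SD, n = 16 HET and 15 WT; log2 fold change -0.58; edgeR quasi-likelihood test with Benjamini-Hochberg adjustment, adjusted p = 7.89e-05). In the other 8 comparisons Chd8 did not pass this test, with log2 fold changes between -0.82 and -0.01. Several libraries went against their labels. The conditional animal HET male replicate 1 had 0 Cre reads in both fractions, and 1 animal is labelled HET in its nuclear library and HOM in its synaptic one. Among germline nuclear libraries, WT male replicate 7 held 547 CPM of Xist and 0.0 CPM of the Y-linked gene Ddx3y, against its label. HET female replicate 4 held 0.428 CPM of Xist, against its label, but 0.0 CPM of Ddx3y, as females do. Both are called libraries that go against their sex label below, the second by Xist alone. Germline synaptic WT male replicates 1 and 2 held 857 and 1221 CPM of the nuclear RNA Malat1, against 18.2 to 184 CPM in the other synaptic libraries and 1000 to 2779 CPM in nuclear ones. Ranges, correlations and tests in germline nuclei and synaptic libraries are given with all libraries, and again without these where the range, a call or a value moved or a result rests on them. Spread ranks and the likeness of other genes are given with all libraries only.

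The sequences just upstream of the members are shown because some of the elements through which activity switches these genes on can lie there. Elements farther from the start site were not searched. RefSeq promoter entries (GRCm38.p6) were used for 8 of the 10 genes, and the 250 bases before the start site were searched on both strands. Members outside this set were not searched, so the counts below do not cover them. Capitals mark the CRE half-site TGACG, the core that CREB binds, and the CArG box, which SRF binds. A half-site on the other strand reads CGTCA. Bases inside an annotated exon were left out of what is printed, which shortens the Dusp1 entry to 203 bases. All 250 bases of the Npas4 window lie in an annotated exon, so it is not printed, but it was searched and counted. The windows printed are chr12:85473640-85473889 (plus strand) for Fos, chr10:67537619-67537868 (plus strand) for Egr2, chr6:85513590-85513839 (minus strand) for Egr4, chr15:101266596-101266845 (plus strand) for Nr4a1 and chr17:26508520-26508722 (minus strand) for Dusp1. Those of Egr2 and Nr4a1 lie inside the annotated genes but in no annotated exon.
Fos: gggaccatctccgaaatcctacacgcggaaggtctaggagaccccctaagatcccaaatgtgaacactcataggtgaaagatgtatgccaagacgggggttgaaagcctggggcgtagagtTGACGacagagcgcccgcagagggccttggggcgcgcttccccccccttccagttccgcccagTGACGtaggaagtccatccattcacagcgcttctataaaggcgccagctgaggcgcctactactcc
Egr2: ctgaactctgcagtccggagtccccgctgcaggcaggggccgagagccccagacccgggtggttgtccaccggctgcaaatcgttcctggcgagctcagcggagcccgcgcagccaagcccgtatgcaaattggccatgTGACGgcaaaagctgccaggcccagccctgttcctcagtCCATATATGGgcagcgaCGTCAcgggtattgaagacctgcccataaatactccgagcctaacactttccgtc
Egr4: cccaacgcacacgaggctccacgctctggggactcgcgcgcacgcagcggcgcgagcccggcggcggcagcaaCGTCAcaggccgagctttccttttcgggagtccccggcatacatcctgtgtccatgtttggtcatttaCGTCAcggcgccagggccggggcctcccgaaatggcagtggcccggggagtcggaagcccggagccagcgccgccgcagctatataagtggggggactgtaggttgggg
Nr4a1: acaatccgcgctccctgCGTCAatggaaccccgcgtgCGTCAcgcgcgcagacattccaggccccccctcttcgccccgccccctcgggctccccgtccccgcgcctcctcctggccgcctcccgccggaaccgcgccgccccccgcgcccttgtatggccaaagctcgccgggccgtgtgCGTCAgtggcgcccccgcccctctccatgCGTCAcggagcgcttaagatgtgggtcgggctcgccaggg
Dusp1: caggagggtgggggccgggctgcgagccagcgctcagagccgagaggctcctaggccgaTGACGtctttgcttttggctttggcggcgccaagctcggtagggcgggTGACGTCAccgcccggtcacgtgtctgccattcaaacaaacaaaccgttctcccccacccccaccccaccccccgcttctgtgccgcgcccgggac
The CRE half-site was present in 8 of the 8 windows, against 17.8% of 32851 RefSeq windows of the same length. The share over all windows counts every entry of a gene, where each member has 1. Nr4a1 held 4 copies, Dusp1 held 3, of which 2 overlap in the full palindrome TGACGTCA, and Fos, Egr2, Egr4 and Npas4 held 2 each. Fosb and Junb held 1 each. The full palindrome was found in 1 window (Dusp1) and the CArG box in 1 (Egr2), against 1.55% and 1.47% of all windows. A TATAAA stretch stood 33 bases before the Fos start and in no other member's window (12.4% of all windows). The EGR site GCGTGGGCG (0.536% of all windows) and the AP-1 site TGANTCA (6.75%) were found in 0 of 8. These are matches of letters within a short window and were not tested for binding.

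In the GRCm38 annotation Arc lies at chr15:74669083-74672570, Junb at chr8:84974484-84978718, Fosb at chr7:19302696-19310051 and Npas4 at chr19:4984355-4989971, all on the minus strand, and Egr1 lies at chr18:34859823-34864984 on the plus strand. No window upstream of Arc or Egr1 was searched. The members differed widely in level. Per kilobase of exon, the median over the 31 germline cortex libraries was highest for Arc, the dendritically transported postsynaptic protein, at 193 CPM per kb, and next for Egr1, the most abundant of the EGR zinc finger factors, at 142 CPM per kb. Nr4a1, an orphan nuclear receptor, followed with 68.9 CPM per kb and Junb, a partner of FOS proteins in the AP-1 dimer, with 66.4. Egr4 had 50.5, Fos had 32.1, and Dusp1, the phosphatase that switches off MAP kinases, had 28.9 CPM per kb. Npas4, a neuron-specific factor induced by calcium, stood at 18.1, Egr2 at 9.41 and Fosb at 7.38 CPM per kb. Neighbours in this order lay within the spread between libraries, since each gene ranged at least 5.05-fold. The antisense gene Prdx2 overlaps exons of Junb, which may raise or lower the counts of Junb. How reads over both genes were counted was not examined. The strand setting of the counting is known for conditional cortex only, where none was used.

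**Figure D1:**
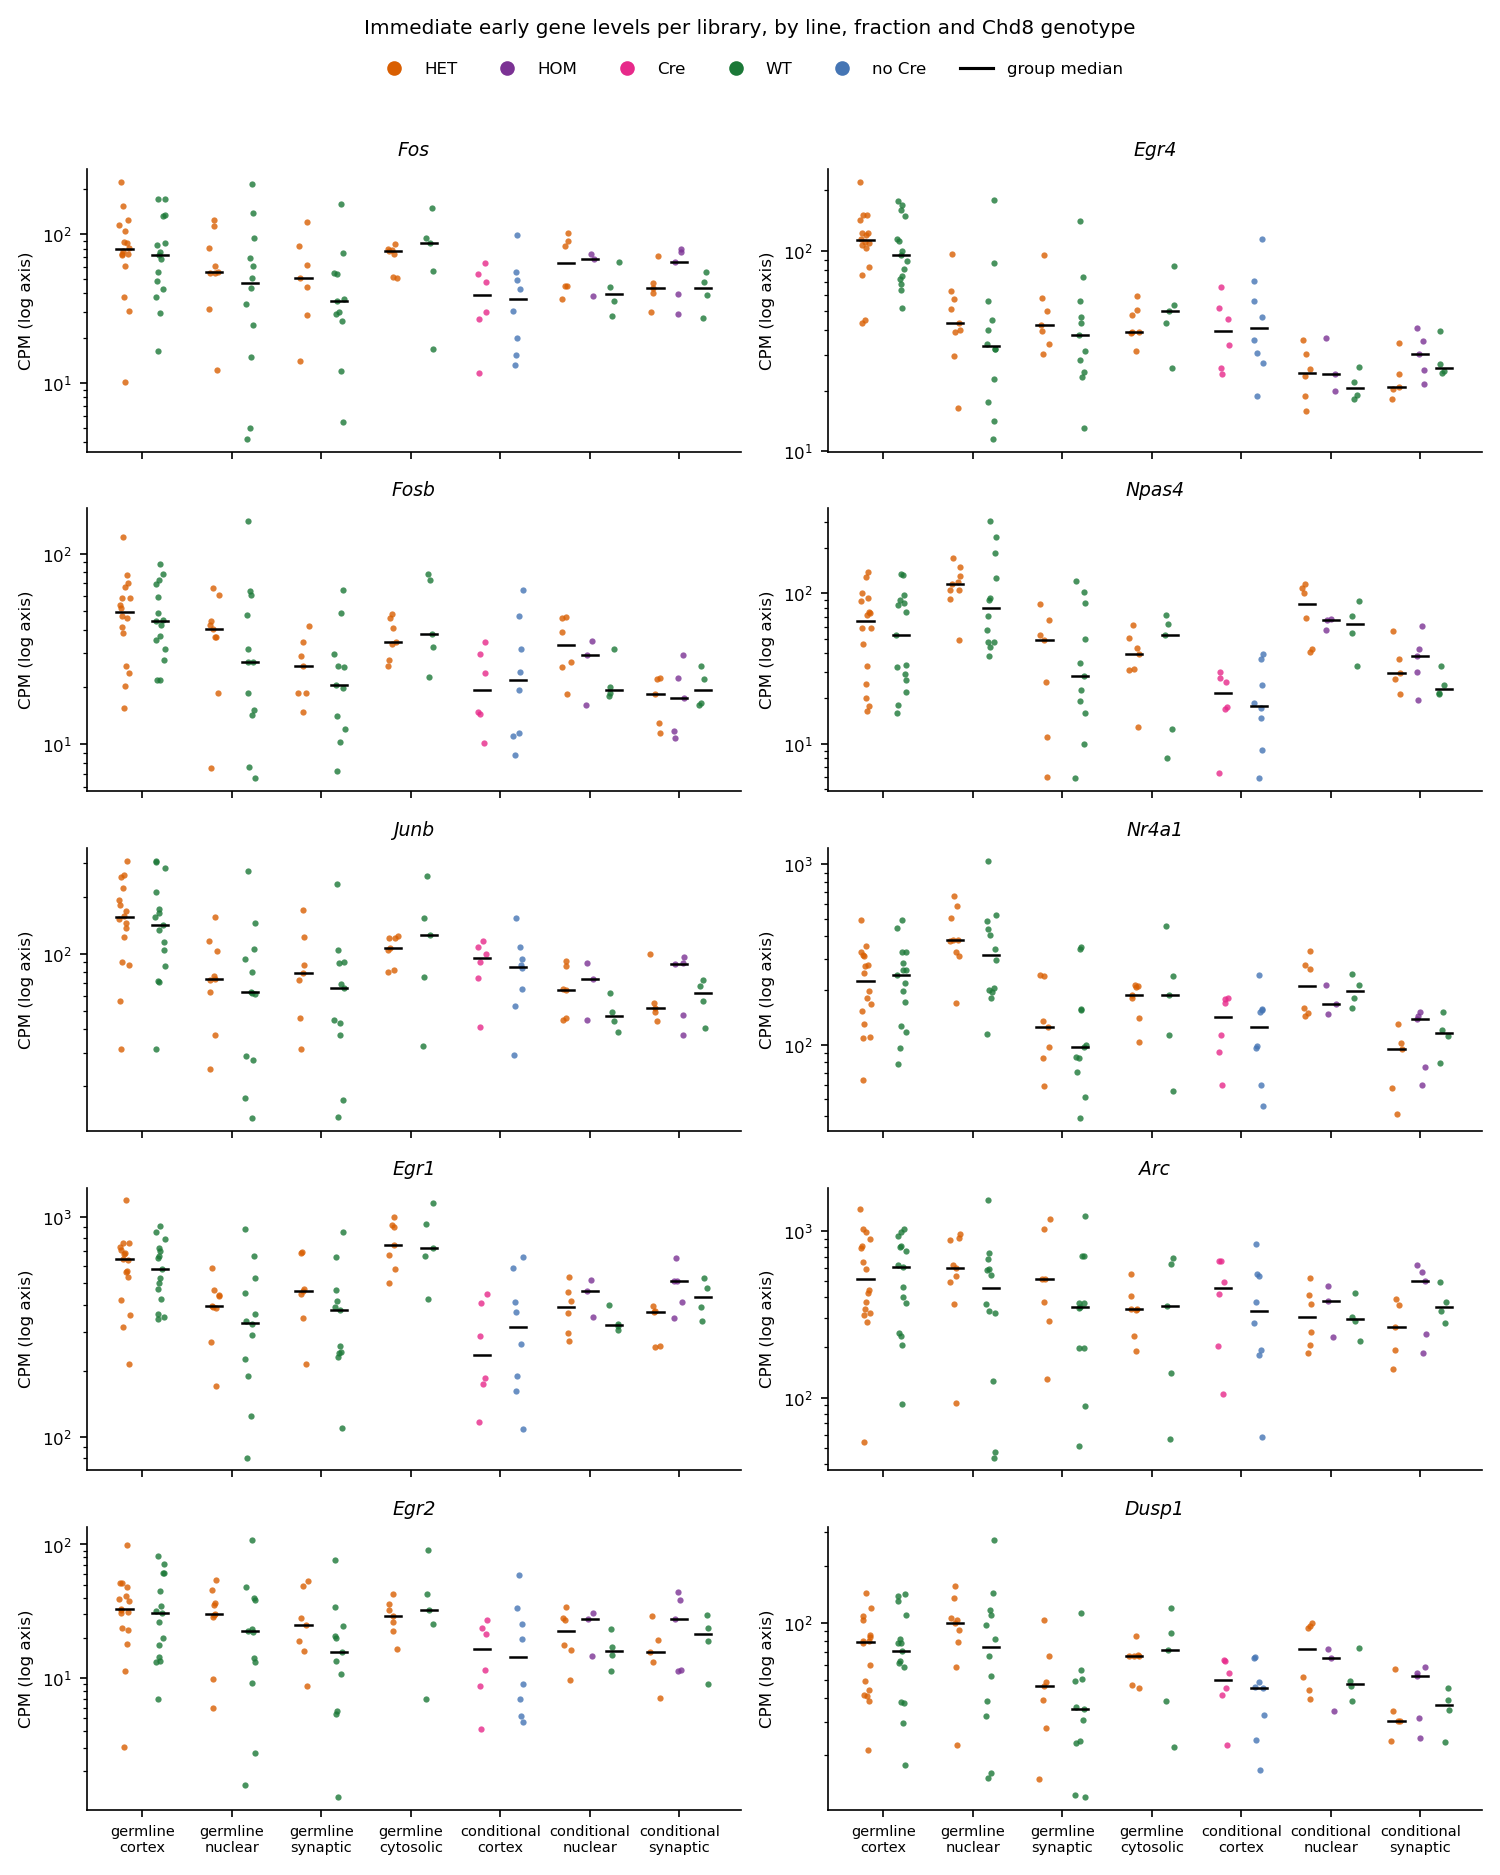
CPM (log axis) of each of the 10 genes in every library, by line, fraction and genotype, with a bar at the group median. Germline libraries of cortex, nuclei and synaptic fractions spread over more than 10-fold for Fos, Egr2 and Arc, and the genotype groups of each data set overlap for every gene.

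Fos ranged 22.2-fold over the 31 germline cortex libraries, with 10.1 CPM in HET female replicate 5, a median of 75.5 CPM and 225 CPM in HET female replicate 3. These 2 libraries have the same genotype and sex label but come from different batches. Egr2, a zinc finger factor of the same rapid class, ranged 32.9-fold in germline cortex (3.02, 32.0 and 99.4 CPM at the lowest, median and highest library), and Arc ranged 24.9-fold (54.1, 592 and 1350 CPM). The narrowest ranges there were those of Egr4, at 5.05-fold, and Egr1, at 5.54-fold. In germline nuclei the range was wider still for Egr2 (68.5-fold, 1.57 to 108 CPM) and Fos (51.5-fold, 4.21 to 217 CPM). Together the 10 genes took 0.0481 to 0.396% of all counts in germline cortex, 0.0376 to 0.495% in nuclei and 0.0322 to 0.334% in synaptic libraries. Without synaptic WT male replicates 1 and 2 the lowest share was 0.045%.

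Set against all genes with a mean log2 CPM of at least 1, this spread was near the top of the table. Differences by sex and batch were left in. The within-genotype SD of log2 CPM in germline cortex was 0.55 (Egr1) to 1.09 (Egr2), where the median gene of 13485 had 0.19. The members had a larger SD than 96.7 to 99.7% of those genes. In germline nuclei Fos ranked 7 and Egr2 ranked 8 of 14665 genes by SD. Conditional fractions were more even. Ranges there were 1.95- to 6.21-fold, and Egr1 in conditional nuclei exceeded 80.1% of genes in SD. In conditional cortex the spread was large again, from 3.96-fold for Dusp1 to 14.1-fold for Egr2 and 14.5-fold for Arc, with no Cre female replicate 1 highest for 9 of the 10 genes. The fractions and whole tissue were prepared and counted separately, so spread between data sets was not tested.

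The members varied together from library to library. In germline cortex, HET female replicate 5 was lowest for 6 of the 10 genes and HET female replicate 3 highest for 6. Within germline nuclei, WT male replicate 6 was highest for all 10 genes, and in the cytosolic fraction WT male replicate 1 was lowest and WT male replicate 2 highest for all 10. After removal of genotype, sex and batch, the median Pearson correlation over the 45 pairs of members was 0.90 in germline cortex (n = 31), 0.92 in nuclei (n = 21), 0.83 in synaptic libraries (n = 18) and 0.88 in cytosolic ones (n = 12). It was 0.94 in nuclei without both libraries that go against their sex label (n = 19) and 0.89 in synaptic libraries without WT male replicates 1 and 2 (n = 16). In the conditional line it was 0.87 in cortex (n = 14), 0.74 in nuclei (n = 13) and 0.81 in synaptic libraries (n = 14). The weakest pair of every data set included Npas4, for example Egr1 with Npas4 at 0.68 in germline cortex and Egr4 with Npas4 at 0.09 in conditional nuclei.

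**Figure D2:**
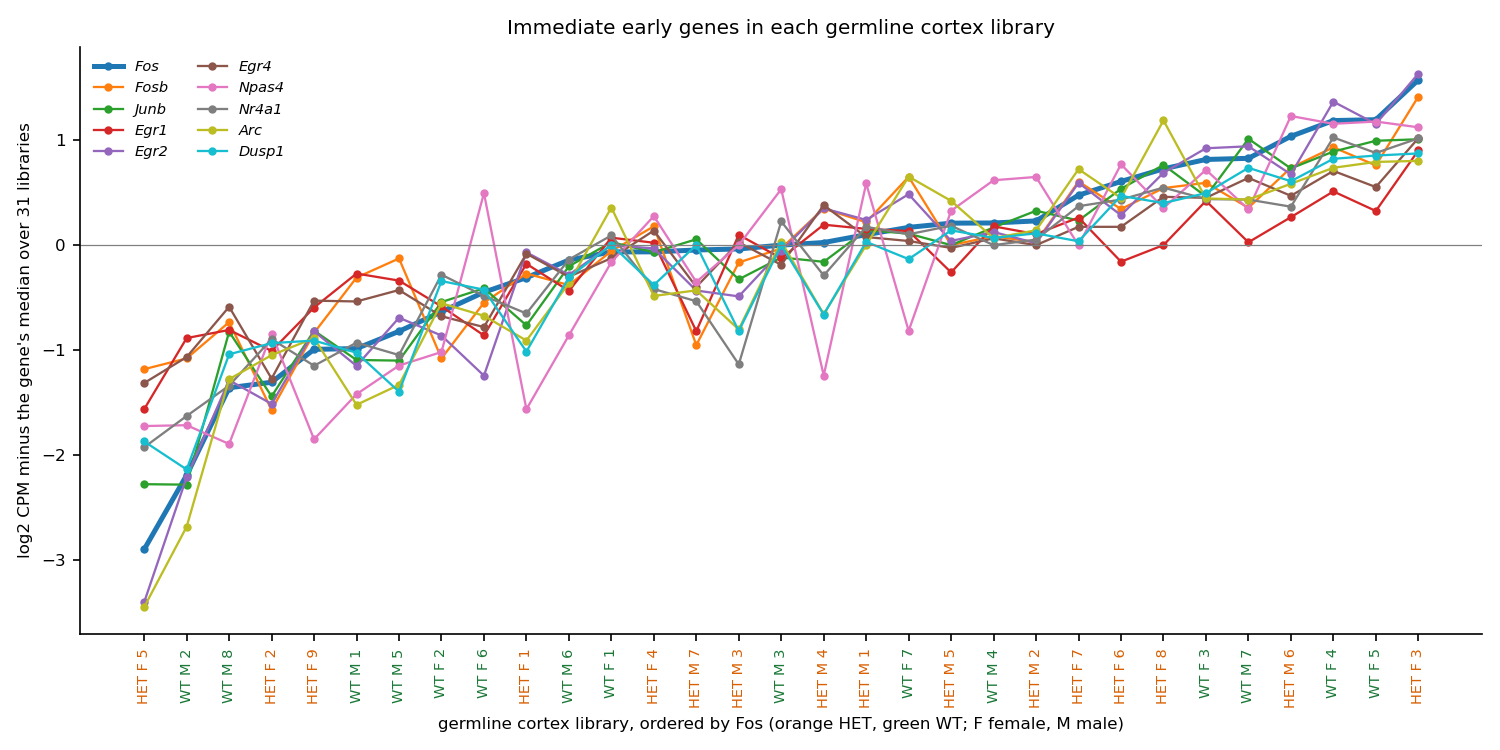
Log2 CPM minus the gene's median (vertical axis) in the 31 germline cortex libraries, ordered by Fos from low to high (horizontal axis), 1 line per gene. The 10 genes climb along the Fos order, with Egr2, Fos and Arc covering the widest range and Egr1 and Egr4 the narrowest.

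Fos served as the common reference for a test over all genes. In germline cortex 9 of the 9 other members were correlated with Fos at a permutation p adjusted over all genes under 0.05, where 0.749% of 13484 genes reached that mark. Their r ran from 0.83 for Npas4 to 0.98 for Junb, with Spearman rho 0.86 and 0.96, a permutation p of 1e-05 each (the smallest that 100000 resamples can give) and an all-gene adjusted p of 0.00241 (n = 31, two-sided). Without the 2 libraries farthest from the Fos median, r was 0.82 for Npas4 and 0.96 for Junb. Junb, Egr2, Nr4a1, Arc, Dusp1 and Egr4 were the 6 genes most correlated with Fos in the whole table, in that order. Within the 2 batches of germline cortex, Junb kept r = 0.98 in each (n = 16 and 15).

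In germline nuclei all 9 members lay among the 12 genes most correlated with Fos of 14664, at r = 0.87 to 0.97, and all passed (0.375% of all genes passed; n = 21). In germline synaptic libraries 8 of 9 passed (0.165% of all genes; n = 18), while Npas4 had r = 0.75 with an adjusted p of 0.159. Without synaptic WT male replicates 1 and 2, Npas4 had r = 0.87 (permutation p adjusted over all genes = 0.0085; n = 16), and 9 of 9 passed where 0.29% of all genes did. Without the nuclear libraries that go against their sex label 9 of 9 passed as before (0.443% of all genes; n = 19). In the smaller data sets fewer passed. The counts were 5 of 9 in the cytosolic fraction (0.061% of all genes; n = 12), 5 of 9 in conditional cortex (0.164%; n = 14), 3 of 9 in conditional nuclei (0.028%; n = 13) and 2 of 9 in conditional synaptic libraries (0.0238%; n = 14). In the cytosolic fraction the relation rested on 2 libraries for Fosb, whose r of 0.80 became 0.30 without them, and for Egr1, whose r of 0.83 became 0.39. In conditional nuclei the r of Egr1 was 0.63, and 0.23 without the 2 farthest libraries. In all, 63 relations of members with Fos were computed.

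The 10 genes with the highest mean r with the members over germline cortex libraries were Trib1, Dusp6, Gadd45b, Arl4d, Sik1, Ier2, Dusp5, Pim3, Mcl1 and Tiparp, with a mean r of 0.83 to 0.88 (31 libraries). Of these, 8 belonged to the list of other rapid activity-induced genes and 2, Pim3 and Mcl1, to no list. In conditional cortex (14 libraries) the mean r of the same genes was 0.89 for Trib1, 0.87 for Sik1 and Dusp5 and 0.85 for Dusp6, but 0.51 for Ier2, 0.45 for Gadd45b and 0.25 for Pim3. These values describe co-variation over libraries and carry no test.

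By list, the median likeness to the members was 0.79 in germline cortex and 0.70 in conditional cortex for the other rapid genes (26 measured of 28). For all genes it was 0.03 and -0.02. That background held 13475 genes in germline cortex and 21788 in conditional cortex, where genes of lower level were included. Contrasts with all genes are therefore not on the same footing in both lines. The delayed and effector genes, which are induced later and encode neuropeptides, channels and synaptic proteins, stood at 0.33 and 0.41, led by Ptgs2 at 0.77. Upstream signalling genes (CREB, SRF, MEF2 and MAP kinase genes) stood at -0.04 in germline cortex and 0.48 in conditional cortex. Glucocorticoid-responsive genes stood at 0.40 and 0.36, clock genes at 0.08 and 0.46 with Per1 highest at 0.73, and heat shock genes at 0.15 and 0.64. Per1 is also on the rapid list. Lists of cell type marker genes also stood apart from all genes in conditional cortex. Choroid plexus genes (4 measured of 8) stood at 0.50, excitatory neuron genes at 0.38 and inhibitory neuron genes at 0.35. Blood genes stood at -0.53, microglial genes at -0.47 and oligodendrocyte genes at -0.44. In germline cortex these lists lay between -0.13 and 0.11. The part of cell composition and of clock, stress and temperature responses in the members' spread was not tested.

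No member was called by genotype. None of the 10 passed the edgeR quasi-likelihood test (adjusted p under 0.05) in any of the 9 genotype comparisons, and none passed in DESeq2 or in voom with sample weights. The share of all genes called was 0.334% in germline cortex, 0.0151% in germline nuclei and 0.0% in each of the other 7 comparisons, so the members' count was near the background. DESeq2 called 0 to 97 genes and voom 0 to 561 in these comparisons. The result depended on the filter on low counts. Without it, Arc passed in germline nuclei and Egr2 in germline synaptic libraries. In the conditional line Fos and Fosb then passed in HET nuclei, Fos, Junb and Egr2 in HOM nuclei, Arc and Nr4a1 in HET synaptic libraries (both lower) and Fos and Npas4 in HOM synaptic libraries. The share of all genes called without the filter was 0.0543% in germline cortex, 0.749% in germline nuclei, 0.807% in germline synaptic and 0.0631% in cytosolic libraries. In the conditional line it was 0.0% in cortex, 0.175% in HET and 0.948% in HOM nuclei, and 0.0623% in HET and 0.302% in HOM synaptic libraries. The fold changes themselves barely moved, for example 0.70 against 0.71 for Fos in HOM nuclei, while the adjusted p was 0.000834 against 0.426. For no member did the genotype groups stand apart, where 0.0% of all genes did so in germline cortex, 0.01% in nuclei, 0.0699% in synaptic and 0.222% in cytosolic libraries. In the conditional line this share was 0.0367% in cortex, 1.06% for HET and 9.58% for HOM nuclei, and 1.08% for HET and 1.43% for HOM synaptic libraries. At an unadjusted p under 0.05 the count of members was 0 in all 4 germline comparisons and in conditional cortex, where 3.08 to 11% of all genes reached that mark.

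In germline cortex Fos had a lowest, median and highest level of 10.1, 78.8 and 225 CPM in HET and 16.5, 72.2 and 173 CPM in WT. The groups overlapped almost fully. The log2 fold change was 0.14 with an SE of 0.308 (adjusted p = 0.909), and its 95% interval ran between -0.49 and 0.77. Arc averaged 603 ± 346 CPM in HET and 570 ± 307 CPM in WT (SD, n = 16 HET and 15 WT), and its fold change of 0.09 on the log2 scale had bounds of -0.55 and 0.72. The narrowest interval was that of Egr1, from -0.30 up to 0.41. The 10 fold changes ran from -0.05 (Nr4a1) to 0.14, with a median of 0.07 where the median of all genes was near 0. Within the batch labelled CHD807 alone they ran from -0.09 (Nr4a1) to 0.27 (Egr4), and within the batch labelled CHD80456 alone from -0.13 (Egr2) to 0.23 (Arc), with no member called in either.

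In germline nuclei the 10 fold changes were all positive, from 0.07 for Junb to 0.36 for Arc (median 0.14; all adjusted p at or above 0.917). The members varied together over libraries (median r of 0.92 in germline nuclei and 0.83 in synaptic libraries). Their shared signs in a comparison are therefore not separate observations. Arc had a lowest, median and highest level of 92.8, 602 and 962 CPM in HET nuclei, against 43.7, 455 and 1522 CPM in WT nuclei. The median of the 10 was 0.38 with voom and sample weights. It was 0.08, from 0.0014 to 0.33, without both libraries that go against their sex label, and 0 members were called. In germline synaptic libraries they were again all positive, from 0.11 for Npas4 to 0.51 for Egr2 (median 0.29; all adjusted p at or above 0.733). Synaptic Egr2 had 8.68, 24.8 and 53.7 CPM in HET and 1.28, 15.7 and 76.3 CPM in WT. The lowest of these is WT male replicate 1, one of the 2 libraries rich in nuclear RNA, and without both the WT levels were 5.36, 19.9 and 76.3 CPM. The 10 synaptic estimates then ran from 0.04 to 0.45 (median 0.24), with 0 called, where 142 of 16862 genes were. With every batch label as its own level in place of 3 batch groups, 9 of these 10 synaptic estimates turned negative (Fos -0.27 and Arc -0.50), none of them called. In the cytosolic fraction 8 of 10 were below 0 (median -0.10). In that fraction the 7 HET libraries were closer together for Fos (50.6, 77.0 and 85.2 CPM) than the 5 WT libraries (17, 86.6 and 149 CPM), whose extremes were the libraries lowest and highest for all members.

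In conditional cortex Fos had 11.6, 38.7 and 64.1 CPM with Cre and 13.3, 36.4 and 99.2 CPM without Cre, with a log2 fold change of -0.07 (SE 0.434, adjusted p = 0.968). The lowest estimates were those of Fosb, a FOS paralogue with a long-lived splice form, at -0.39, Egr1 at -0.38 and Egr2 at -0.37, each with an adjusted p of 0.882. The overlapping groups and the SEs of 0.285 to 0.563 allow sizeable changes in either direction.

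In conditional nuclei all 10 estimates lay above 0 in HET and 9 in HOM, and none passed. The members varied together there too (median r of 0.74), so these counts of members are not counts of separate observations. Fos had 36.8, 45.1, 44.9, 102, 89.3 and 83.8 CPM in the 6 HET nuclear libraries, 68.4, 73.6 and 38.3 CPM in the 3 HOM libraries and 28.1, 35.5, 43.8 and 65 CPM in the 4 WT libraries. The groups overlapped. The log2 fold change was 0.58 in HET (SE 0.227, p = 0.0214, adjusted p = 0.933) and 0.71 in HOM (SE 0.264, p = 0.0155, adjusted p = 0.426). In HET nuclei 3 members had an unadjusted p under 0.05, namely Fos, Fosb (0.59) and Junb (0.45), where 4.45% of all genes did. In HOM nuclei 4 did, namely Fos, Junb (0.66), Egr1 (0.51) and Egr2 (0.72), where 11.6% of all genes did. The median of the members was 0.36 in HET and 0.44 in HOM. With the replicate number as a block it was 0.09 in HET and 0.47 in HOM, and with voom and sample weights 0.18 in HET and 0.43 in HOM. Both comparisons share the 4 WT libraries. Without HET male replicate 1, which held 0 Cre reads, or without the animal labelled both HET and HOM, no member passed either.

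The summed level of endothelial and mural marker genes in these nuclear libraries was 595 to 1304 CPM in HET, 476 to 1210 CPM in HOM and 816 to 1994 CPM in WT, with all 17 markers detected, and their part in the members' values was not tested. In conditional synaptic libraries the members' median was -0.25 in HET and 0.23 in HOM. Only Egr1 in HET (log2 fold change -0.40, p = 0.0294, adjusted p = 0.995) and Npas4 in HOM (0.62, p = 0.0251, adjusted p = 0.923) had an unadjusted p under 0.05, where 4.37% of all genes did in HET and 4.96% in HOM. Synaptic Npas4 had 30.0, 60.7, 19.5, 38.5 and 42.6 CPM in HOM and 21.4, 24.7, 21.6 and 33.1 CPM in WT, groups that overlap.

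**Figure D3:**
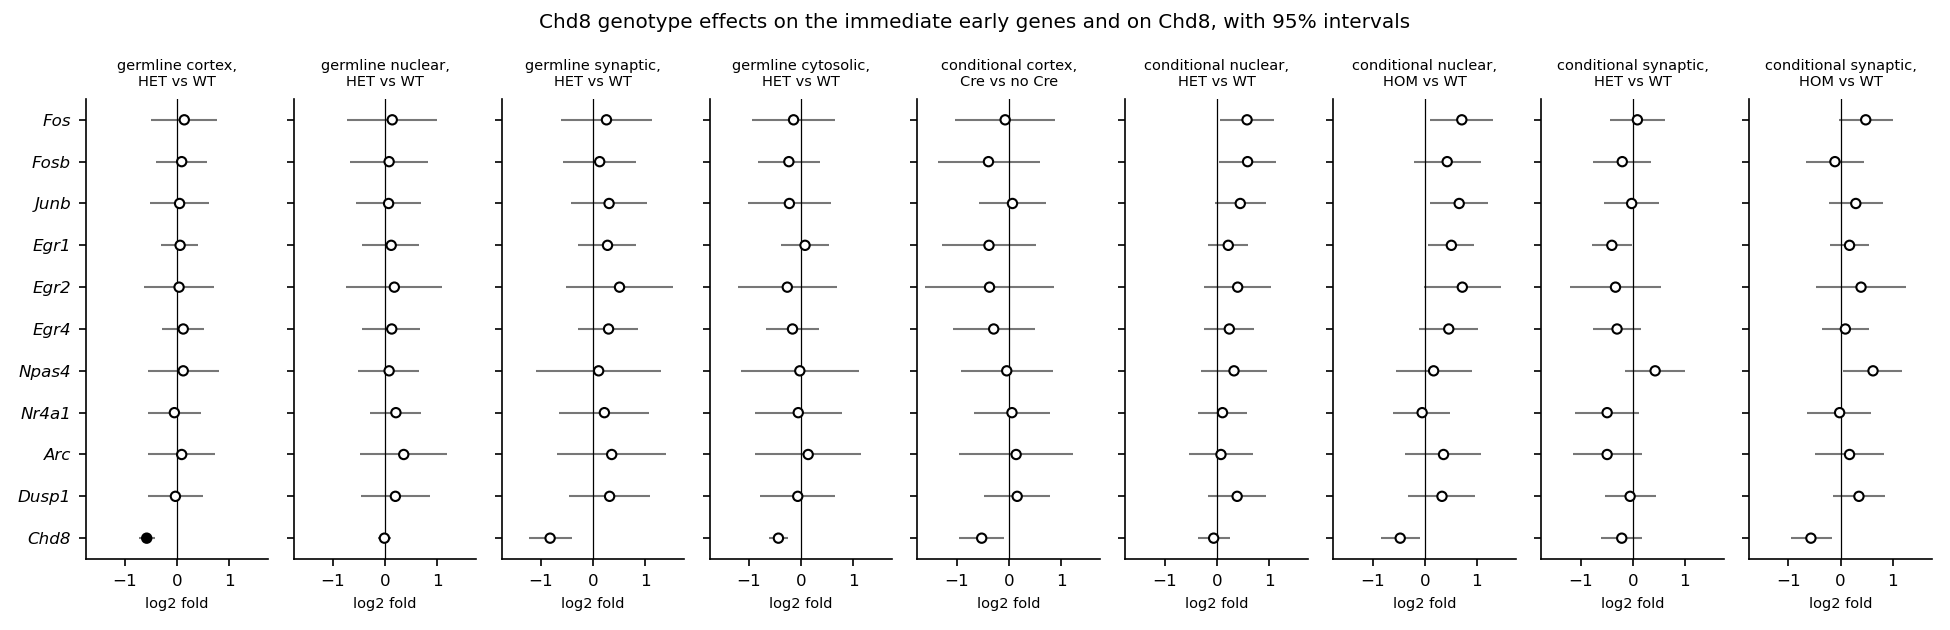
Log2 fold change (horizontal axis, with 95% intervals) of the 10 genes and of Chd8 in the 9 genotype comparisons, mutant or Cre over WT or no Cre. Filled points passed at an adjusted p under 0.05, and only Chd8 in germline cortex did.

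Of the 28 other rapid, 24 delayed and effector and 25 upstream genes, 0 passed the edgeR test in any of the 9 comparisons. At an unadjusted p under 0.05 the rapid list had 0 to 5 genes, the delayed list 0 to 5 and the upstream list 0 to 6, where 3.08 to 11.6% of all genes reached that mark. In germline synaptic libraries 23 of the 24 delayed genes were above 0 (median 0.25, against -0.0019 for all genes), with 5 at an unadjusted p under 0.05, where 11% of all genes were. Without WT male replicates 1 and 2 there, 22 of 24 were above 0 (median 0.14), and 4 had an unadjusted p under 0.05 where 19% of all genes did. The delayed list's median was -0.06 in conditional synaptic HOM libraries.

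Comparing fractions asks where in the cell the RNA of these genes was found. Synaptic and nuclear libraries of the same animal were paired (5 HET and 10 WT germline animals, and 5 HET, 3 HOM and 4 WT conditional animals). The members did not all go the same way. Junb, Egr1 and Egr4 were higher in synaptic than in nuclear libraries and passed the test in all 5 groups of animals. Npas4, Nr4a1 and Dusp1 were lower wherever they passed, Dusp1 in germline WT and conditional HET alone. Fos, Fosb, Egr2 and Arc passed in some of the groups only, and were higher where they did. The count of members called higher and lower was 6 and 2 in germline HET, 3 and 3 in germline WT, 4 and 3 in conditional HET, 4 and 0 in conditional HOM, and 7 and 1 in conditional WT.

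The background of these counts is high, because the fractions differ in most genes, and the members' totals of calls lay near it. Of all genes tested, 62.9% were called in germline HET (26.8% higher and 36.2% lower), 64.6% in germline WT (29.3% and 35.2%), 60.6% in conditional HET (27.9% and 32.7%), 48.0% in conditional HOM (22.9% and 25.1%) and 61.5% in conditional WT (28.6% and 32.9%). The direction also depends on how libraries are scaled. With TMM scaling the median of all genes was -0.19, -0.14, -0.14, -0.11 and -0.15 in these 5 groups. With total counts alone it was -0.79, -0.64, -0.70, -0.63 and -0.71, and every member's fold change was lower by about the same amount. The share of genes called higher was then 8.51 to 11% and the share called lower 46.7 to 57.2%. The fold changes and the counts of animals that follow are on the TMM scale, and CPM levels are on the total count scale.

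Junb had a lowest, median and highest level of 31.4, 79.0 and 123 CPM in synaptic libraries of germline HET, against 24.8, 72.8 and 76.6 CPM in their nuclear libraries. On the TMM scale it was higher in 5 of 5 animals, and on the CPM scale in 4 of 5, and the log2 fold change was 1.07 (SE 0.226, adjusted p = 0.000621). In conditional WT it was 0.85 (SE 0.116, adjusted p = 2.48e-06), again higher in 4 of 4 animals. In germline WT the value was 0.43 (adjusted p = 0.0248), but 0.36 to 0.38 with an adjusted p of 0.0601 to 0.0684 without animal 1F, 3F, 4F or 5F. With total counts alone Junb turned to -0.07 in germline WT and -0.07 in conditional HET.

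Egr1 had 337, 435 and 528 CPM in synaptic libraries of conditional WT, against 308, 323 and 396 CPM in nuclear ones. Its log2 fold change was 0.92 (SE 0.126, adjusted p = 2.68e-06; higher in 4 of 4 animals) and ranged from 0.43 in conditional HET to 1.05 in germline HET. Egr4 had 24.4, 26 and 39.7 CPM in conditional WT synaptic libraries and 18.1, 20.6 and 26.4 CPM in nuclear ones, with a log2 fold change of 1.00 (SE 0.161, adjusted p = 2e-05). With total counts alone the called rises that remained were those of Junb, Egr1 and Egr4 in conditional WT (0.28, 0.35 and 0.43), and Egr1 in conditional HET became -0.13. In conditional HET, Fos (-0.39) and Fosb (-0.86) were then called lower.

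Arc, whose RNA is known to travel into dendrites, was higher in synaptic libraries in 4 of 5 groups. In conditional WT it had 281, 351 and 494 CPM in synaptic and 219, 298 and 424 CPM in nuclear libraries (log2 fold change 0.83, SE 0.140, adjusted p = 3.21e-05). In germline HET the value was 0.73 (adjusted p = 0.0328), in conditional HOM 0.64, in conditional HET 0.47 and in germline WT 0.38 (adjusted p = 0.117). Without animal 70, Arc (0.40, adjusted p = 0.0694) and Junb (0.37, adjusted p = 0.062) lost the call in conditional HOM. Fos and Egr2 were called higher in germline HET (0.86 and 0.93) and in conditional WT (0.57 and 0.79) and did not pass in the other 3 groups. Fosb passed in conditional WT alone, at 0.44 (adjusted p = 0.0431), and lost the call without animal 49, 55, 64, 65 or 94.

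Npas4 was lower in synaptic libraries. In germline WT it had a lowest, median and highest level of 5.87, 25.4 and 121 CPM in synaptic and 38.5, 80.5 and 302 CPM in nuclear libraries. The log2 fold change was -1.22 (SE 0.229, adjusted p = 0.000198), lower in 9 of 10 animals. It was -0.96 in germline HET, -0.66 in conditional WT and -0.48 in conditional HET, each called, and -0.42 in conditional HOM (adjusted p = 0.132). The call in conditional WT was lost without animal 49 (-0.50, adjusted p = 0.0621), that in conditional HET without animal 63 (-0.31, adjusted p = 0.119) and that in germline HET without animal 18M (-0.86, adjusted p = 0.0586) or 9F (-0.62, adjusted p = 0.0958).

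Nr4a1 fell by 1.01 on the log2 scale in germline WT (adjusted p = 0.000198), by 0.91 in germline HET and by 0.71 in conditional HET. In germline HET its synaptic levels were 58.9, 126 and 240 CPM and its nuclear levels 171, 381 and 589 CPM, lower in 5 of 5 animals. It did not pass in conditional HOM (-0.09) or conditional WT (-0.24). Dusp1 was called lower in germline WT (-0.45, adjusted p = 0.0381) and conditional HET (-0.29, adjusted p = 0.0344). In conditional HOM it was higher in synaptic libraries in 3 of 3 animals, without a call. Without animal 29M, whose nuclear and synaptic libraries carry markers of different sexes, Dusp1 in germline WT was -0.39 (adjusted p = 0.0866), and it also lost the call without animal 24M, 25M or 2F (adjusted p of 0.073 to 0.0986). In conditional HET it lost the call without animal 62, 63, 64, 67, 70 or 72 (adjusted p of 0.0512 to 0.274). With total counts alone Npas4, Nr4a1 and Dusp1 were lower and called in all 5 groups, at -1.73 to -0.94, -1.52 to -0.61 and -0.95 to -0.40.

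In germline HET the count of calls depended on single animals. Of 8 calls, 5 were left without animal 16M or 17M and 4 without animal 18M or 9F, with Fos, Egr2 and Arc losing the call in each case. Without WT animals 12M and 13M, whose synaptic libraries hold nuclear RNA, 6 members were called in germline WT as before, with Npas4 at -1.46 and Nr4a1 at -1.20. Without animal 24M, Fos (0.53, adjusted p = 0.0419) and Arc (0.55, adjusted p = 0.0118) were also called higher in germline WT.

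**Figure D4:**
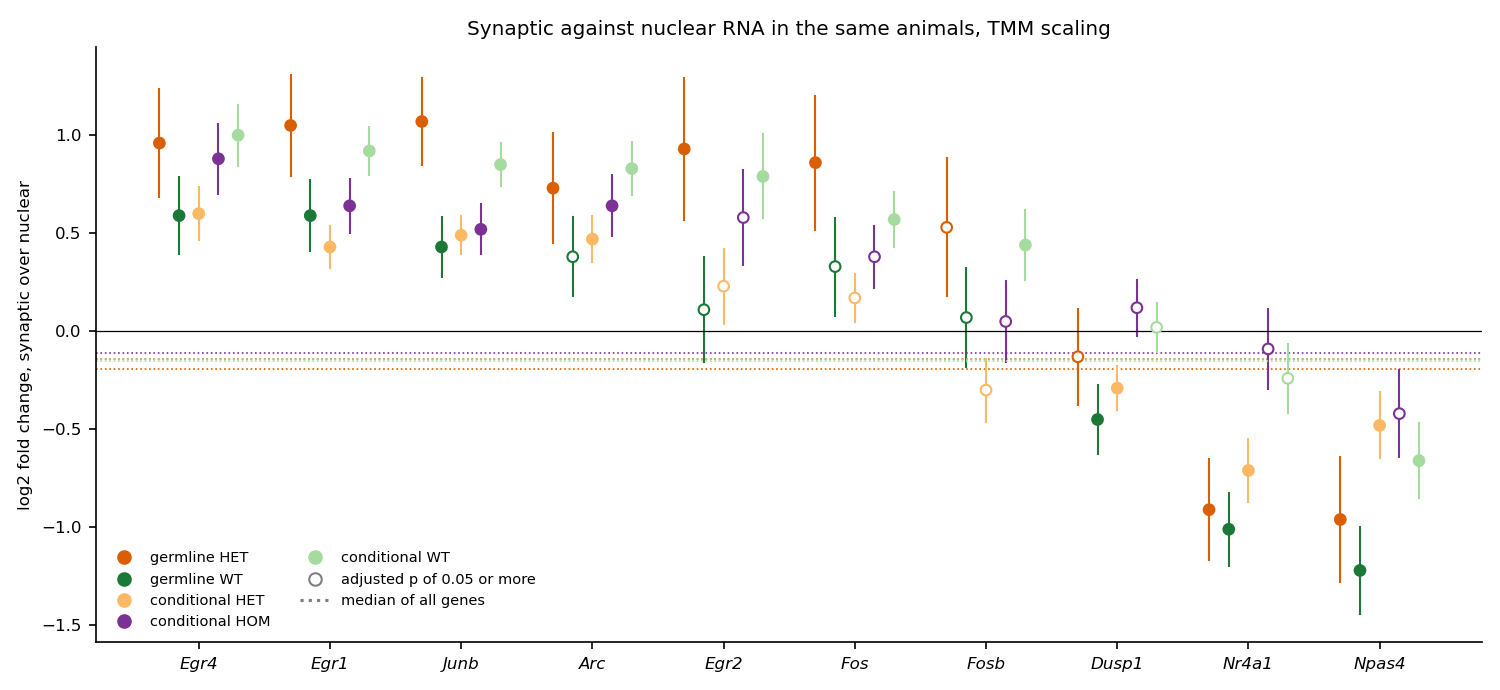
Log2 fold change of synaptic over nuclear libraries (TMM scaling, with SE bars) of each gene in 5 groups of animals. Filled points passed at an adjusted p under 0.05, and dotted lines mark the median of all genes. With total counts alone these values above 0 fall below it: Fosb in germline HET, Fos, Fosb, Junb, Egr2 and Arc in germline WT, Fos, Junb, Egr1, Egr2 and Arc in conditional HET, and Fos, Fosb and Dusp1 in conditional HOM and conditional WT.

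Cell type markers also differed between the fractions. Endothelial and mural markers were lower in synaptic libraries, with 16 to 17 of 17 called lower and none higher in each of the 5 groups (median -4.31 to -2.68). Their summed level was 77.5 to 135 CPM in germline HET synaptic libraries and 1198 to 2403 CPM in HET nuclear ones, and 86.3 to 861 CPM in WT synaptic and 1336 to 3512 CPM in WT nuclear libraries. All markers were detected in both. Excitatory neuron markers were higher in synaptic libraries for 5 of 6 genes (median 0.70 to 0.97; 1 gene was lower in germline WT), inhibitory neuron markers for 7 of 7 (median 1.13 to 1.76) and microglial markers for 11 to 12 of 12. Nuclear-retained RNAs were lower for 9 of 10. The part of these cell types in the members' values was not tested.

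Among the other rapid genes the count called higher and lower in synaptic libraries was 4 and 6 of 28 in germline HET, 3 and 13 in germline WT, 4 and 7 in conditional HET, 8 and 5 in conditional HOM and 9 and 5 in conditional WT. The 3 most significant in every group were Klf2 and Klf4, Krüppel-like factors abundant in endothelium, and Zfp36, an RNA decay factor. In conditional WT they were at -3.59, -3.74 and -1.87 (adjusted p at or below 5.76e-07). Delayed and effector genes were mostly higher, with 19 to 22 of 24 called higher and 0 to 2 lower (median 0.82 to 1.27). They included the granin Scg2 (2.14 in conditional WT), the neurotrophin Bdnf (1.69) and the potassium channel gene Kcnj4 (1.83). Upstream genes were called higher for 13 to 15 of 25 and lower for 0 to 4, with the NMDA receptor subunit gene Grin1 at 1.52 and the kinase gene Camk4 at 1.41 in conditional WT.

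Whether the synaptic to nuclear difference varied with genotype was tested by interaction. None of the 10 members passed in the germline line or in either conditional contrast, and 0.0% of all genes did in each (0 of 21515, 0 of 21577 and 0 of 21577 genes by edgeR). At an unadjusted p under 0.05 stood Junb in the germline line (HET minus WT 0.64, 95% interval 0.04 to 1.23, adjusted p = 0.588). In conditional HET the same held for Fosb (-0.74), Junb (-0.36) and Egr1 (-0.48), each with an adjusted p of 1.0, and in conditional HOM for 0 members. The share of all genes at that mark was 7.21% in the germline line, 2.89% in conditional HET and 4.78% in conditional HOM. DESeq2 and voom with sample weights called 0 members in these 3 tests.

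An animal with a high level in its nuclear library tended to have a high level in its synaptic library. The germline animal 25M, for example, had 160 CPM of Fos in its synaptic library and 217 CPM in its nuclear one, the highest of each fraction. An exception was animal 24M, with 29.1 CPM in the synaptic and 138 CPM in the nuclear library. Over 15 germline animals, after removal of genotype means, 6 of 10 members passed a permutation test adjusted over all genes, where 0.632% of 12661 genes did. They were Arc (r = 0.90, adjusted p = 0.0158), Junb (0.90, 0.0211), Fos (0.86, 0.0317), Dusp1 (0.88, 0.0345), Egr2 (0.83, 0.0437) and Npas4 (0.81, 0.0468). The other 4 had r = 0.73 to 0.78 and adjusted p of 0.0692 to 0.115. The median r was 0.82 for the members and 0.10 for all genes.

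Spearman's rho was 0.82 for Arc, 0.88 for Junb and 0.75 for Fos, and without the 2 animals farthest from the nuclear median r was 0.84, 0.83 and 0.77 (two-sided permutation p of 1e-05, 1e-05 and 7e-05 for r). Without animals 12M, 13M and 29M, 4 members passed, and Fos (0.82, adjusted p = 0.0513) and Egr2 (0.72) did not. With batch group removed as well, 7 passed, but r was lower for most members. It fell from 0.78 to 0.42 for Egr4, from 0.77 to 0.55 for Egr1, from 0.74 to 0.55 for Fosb and from 0.86 to 0.75 for Fos. For Nr4a1 it rose from 0.73 to 0.86, and for Npas4 it stayed at 0.81. In the 12 conditional animals 2 of 10 passed, where 1.26% of 12509 genes did, namely Junb (r = 0.89, adjusted p = 0.0275) and Dusp1 (r = 0.84, adjusted p = 0.0474). Arc at r = 0.85 and Fos at r = 0.80 had adjusted p of 0.0549 and 0.0892. The conditional median was 0.62 for the members and 0.16 for all genes. In all, 20 such relations of members were computed.

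**Figure D5:**
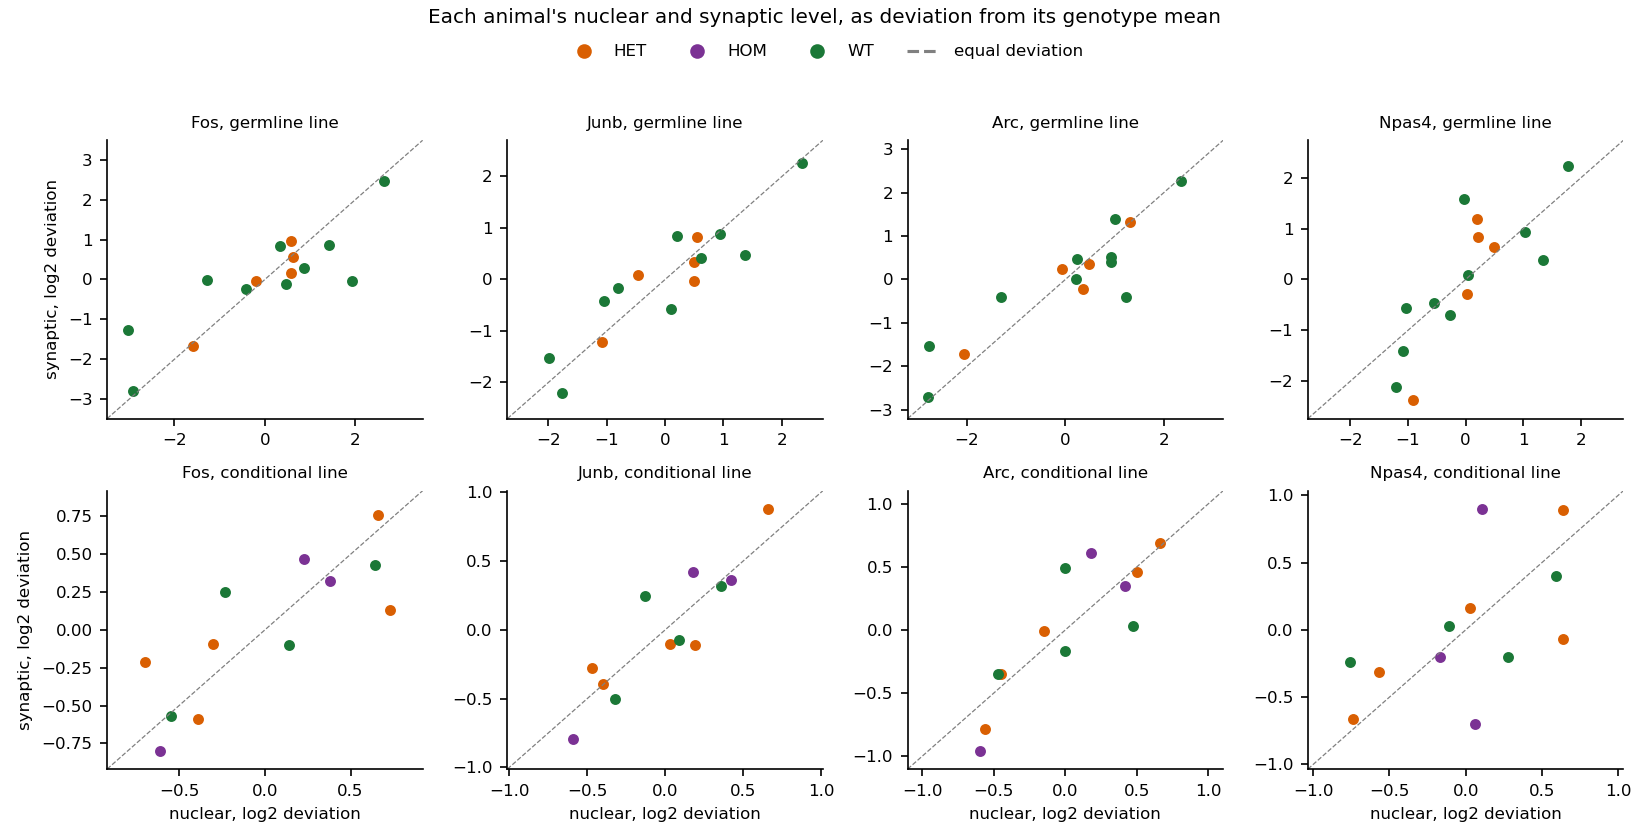
Deviation of log2 CPM from the genotype mean in the synaptic library (vertical axis) and the nuclear library (horizontal axis) of the same animal, for Fos, Junb, Arc and Npas4 in 15 germline animals (top) and 12 conditional animals (bottom). Points near the dashed line deviate equally in both fractions, and germline animals cover the wider range.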

How the data were processed

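The authors deposited unnormalized gene-level counts for paired-end poly(A) RNA-seq of cortex and of its nuclear, synaptic and cytosolic fractions. STAR 2.5.4b, featureCounts 2.0.0 and the GRCm38 build are named in the submitters' processing notes. For conditional cortex, featureCounts 1.6.0 and Ensembl annotation 95 are given, per the file headers. The labels describe 127 libraries, of which 123 enter here. The 4 others, all cytosolic, were not used here.

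The 10 genes, the other gene lists and the tests were chosen with earlier results of these data known. Differences were tested with edgeR 4.0.16 (TMM scaling, filterByExpr, quasi-likelihood F test, Benjamini-Hochberg adjustment over all genes at 0.05), with sex and, in the germline cortex, nuclear and synaptic data, batch as terms. Synaptic and nuclear libraries were compared with the animal as a block, since the labels give the animal of each library. Same-animal libraries deviated together (correlation above 0.1 in 12 of 15 germline and 10 of 12 conditional animals). Libraries of HET and WT with the same replicate number also deviated together in 4 of 4 pairs of conditional nuclei (0.11 to 0.17). This held for 10 of 14 pairs in germline cortex (highest 0.74), 5 of 9 in germline nuclei (highest 0.38) and 0 of 7 in germline synaptic libraries. Blocking on replicate number changed no member's call. It moved the genes called from 57 to 36 in germline cortex and from 0 to 63 in the cytosolic fraction. Alternatives were DESeq2 1.42.0, limma 3.58.1 (voom with sample weights), other scaling, no filter on low counts, and each library or animal left out.

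CPM are counts over the total of gene counts. Correlations used log2 CPM with a prior count of 2, 100000 permutations and adjustment over all genes, in place of the adjustment over the members first planned. The genes named outside the members were Chd8, the 10 most like them, at most 3 of those called per list and comparison (those with the smallest p) and, added after seeing the values, the gene of a list most like the members. In genotype tests the p-value sets an effect against the spread between these libraries. In fraction tests it is set against the spread of differences within animals, and in correlations against permuted libraries or animals. The fitting scripts were tested on simulated counts.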

Additional observations from a re-analysis of the deposited data

Results flagged for a closer look

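Of 110 sets of 1 gene in 1 group of 4 to 10 libraries, 3 held a library that stood far from the rest by Dixon's criterion, where chance gives about 1 in 20. Each was the highest library of its group. Egr4 had 95.1 CPM in germline synaptic HET female replicate 4, where the other 6 HET libraries lay between 30.5 and 58.2 CPM. Junb had 99.8 CPM in conditional synaptic HET female replicate 3, where the other 4 HET libraries lay between 44.1 and 54.9 CPM. Fosb had 31.7 CPM in conditional nuclear WT female replicate 2, where the other 3 WT libraries lay between 18 and 20.1 CPM. No member's synaptic to nuclear difference passed a test of its dependence on genotype.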

How the results depend on the processing

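In the genotype comparisons 0 members were called under every alternative and every left-out library, except without the filter on low counts, which called 1 (Arc) in germline nuclei, 1 (Egr2) in germline synaptic libraries, 2 in conditional nuclear HET, 3 in conditional nuclear HOM, 2 in conditional synaptic HET and 2 in conditional synaptic HOM libraries. The cause was not tested. With the replicate number as a block 0 members were called, and the members' median became 0.77 in germline nuclei, 0.84 in germline synaptic and 0.15 in cytosolic libraries and 0.12 in conditional cortex (against 0.14, 0.29, -0.10 and -0.05). In the synaptic to nuclear comparison, the fit with no replicate block (no animal term) called 0 members in germline HET, 2 in germline WT, 3 in conditional HET, 2 in conditional HOM and 5 in conditional WT, against 8, 6, 7, 4 and 8. Voom with sample weights called 7 in conditional HOM. Total counts alone called 3 in germline HET and 3 in germline WT. This scaling lowers every fold change. Those that turned below 0 were Fosb (-0.07) in germline HET, Fos (-0.17), Fosb (-0.43), Junb (-0.07), Egr2 (-0.39) and Arc (-0.13) in germline WT, Fos (-0.39), Junb (-0.07), Egr1 (-0.13), Egr2 (-0.33) and Arc (-0.09) in conditional HET, Fos (-0.14), Fosb (-0.47) and Dusp1 (-0.4) in conditional HOM, and Fos (-0.003), Fosb (-0.13) and Dusp1 (-0.55) in conditional WT. Leaving out 1 animal gave 4 to 8 calls in germline HET, 5 to 7 in germline WT, 6 to 8 in conditional HET, 3 to 6 in conditional HOM and 6 to 8 in conditional WT. Interaction tests called 0 members throughout. With genotype alone removed, 4 of the 63 correlations with Fos changed side of the threshold. Leaving doubted libraries out of those correlations was chosen after seeing the data.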
